A study of Mus musculus with 8 samples.

Results

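The genes described here are the zinc finger protein genes whose symbol is Zfp followed only by a number, in inguinal white adipose tissue (iWAT) of cold-exposed mice. Zfp36, which encodes an RNA-binding protein with a different kind of finger, was left out. The members were chosen on their RNA-seq level, as the symbols with at least 1 RPKM (reads scaled by gene length and library depth) in all 4 RNA-seq libraries. Of 353 such symbols in the files, 225 were members, among 10227 genes of any name at the same threshold and 17264 genes in all. RNA-seq measured polyadenylated RNA, and Ribo-seq measured the RNA fragments that ribosomes protect from digestion (footprints). Y1cKO mice were Ythdf1 flox/flox with Adipoq-Cre, which removes the m6A reader YTHDF1 from adipocytes only, and their Y1CTL littermates were Ythdf1 flox/flox without Cre. All were male C57BL/6 mice of 9 weeks that had been kept in the cold for a week. Each genotype had 2 libraries per assay, 8 in all, and other cells of the fat pad keep Ythdf1 in both genotypes.

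Zinc finger proteins of this kind carry rows of C2H2 fingers, each a short fold held by a zinc ion that reads a few bases of DNA. They form the most numerous class of transcription factors in mammals. Many also carry a KRAB domain, which recruits the corepressor TRIM28 (KAP1) and with it histone and DNA methylation, and many KRAB members silence retroelements. In fat, Zfp423 marks committed preadipocytes and restrains the thermogenic program of white adipocytes, and Zfp516 is induced by cold and activates Ucp1 together with PRDM16. Some genes share the Zfp symbol but encode proteins that work on ribosomes, RNA or ubiquitin.

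The Zfp members carried few ribosome footprints for their RNA. Translational efficiency (TE) was taken as the mean log2(RPKM + 0.5) of the 4 Ribo-seq libraries minus that of the 4 RNA-seq libraries, so that 0 means the same value in both assays. The median TE was -0.27 over the 225 members and 0.88 over all 10227 genes at the threshold, a difference of -1.15 on the log2 scale. The quartiles were -0.93 and 0.23 for the members, against -0.07 and 1.76 for all genes. In total, 207 members (92.0%) lay below the median of all genes, where the background is 50% by construction. The lowest 10% of all genes held 55 members (24.4%), and the highest 10% held 1 (0.444%). These values are a description with no test, because the genes were proposed with their ratio known and genes are not independent replicates.

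**Figure D1:**
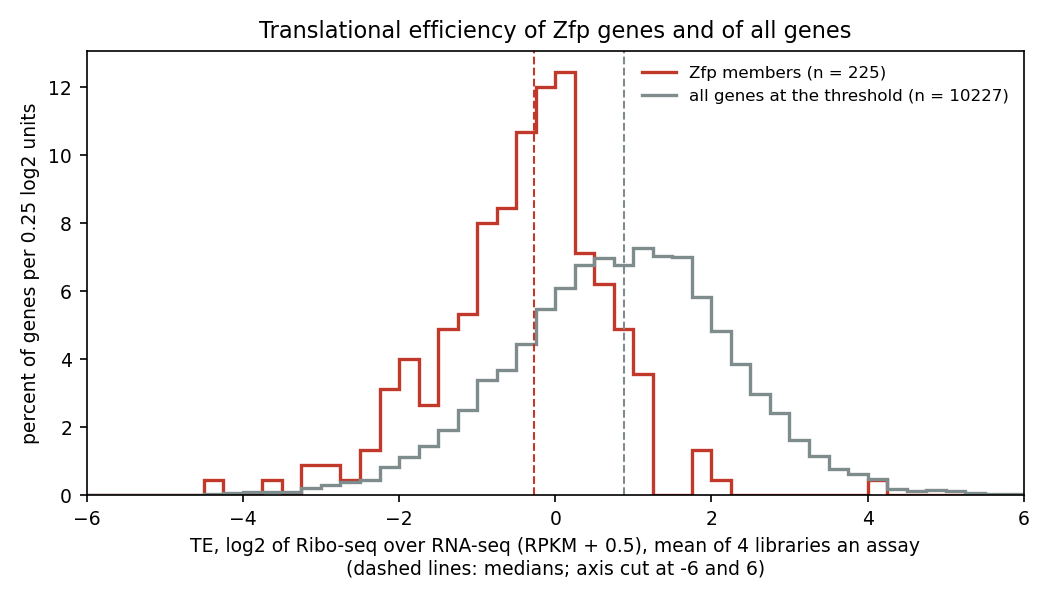
Distribution of TE (x axis, log2 of Ribo-seq over RNA-seq RPKM) as percent of genes per bin (y axis) for the 225 Zfp members and for all 10227 genes at the threshold. The dashed medians stand at -0.27 for the members and 0.88 for all genes.

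The low ratio was seen in both genotypes and in every library pair. In Y1cKO tissue the median TE was -0.33 for the members and 0.78 for all genes. In Y1CTL tissue it was -0.22 for the members and 0.96 for all genes. Over the 8 ways to pair a Ribo-seq with an RNA-seq library of the same genotype, the difference between members and all genes ran from -1.23 to -1.08. Between same-numbered pairs it had an SD of 0.0725 (n = 4). A total of 182 members were below the median of all genes in all 4 same-numbered pairs, as were 39.0% of all genes, and 8 members were above it in all 4. The order of members hardly moved with genotype, with a Spearman's rho of 0.91 between TE in Y1cKO and TE in Y1CTL across 225 genes, against 0.95 across the other 10002. Genes within a library share its depth, so this is a description across genes.

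The gap was on the side of the footprints more than of the RNA. The median RNA-seq level of the members was 4.11 and 3.89 RPKM in the Y1cKO libraries, and 3.36 and 3.73 RPKM in the Y1CTL libraries. Over all genes at the threshold it was 9.44 and 8.83 RPKM in Y1cKO and 7.96 and 8.003 RPKM in Y1CTL. The median Ribo-seq level of the members was 2.66 and 2.82 RPKM in the Y1cKO libraries, and 2.76 and 2.77 RPKM in the Y1CTL libraries. Over all genes it was 15.3 and 15.9 RPKM in Y1cKO and 15.2 and 15.6 RPKM in Y1CTL. The members thus lay below all genes in both assays, and the 4 Ribo-seq libraries gave nearly the same member median. A member had 0 to 3111 footprint reads over the 4 Ribo-seq libraries (median 189) and 105 to 13386 RNA-seq reads (median 497). For 58 members the footprints numbered fewer than 100, which limits the precision of their TE. Without them the difference from all genes was -0.90 for the remaining 167, a setting that removes members for few footprints and so raises their ratio.

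Depth was 12211351 and 16429015 reads in the Y1cKO RNA-seq libraries and 3958284 and 4963613 reads in the Y1CTL ones, and the Ribo-seq libraries had between 7364523 and 11862838 reads. Ythdf1 itself had 7.17 and 7.98 RPKM in the Y1cKO RNA-seq libraries, against 8.006 and 11.5 RPKM in the Y1CTL libraries, which is whole-tissue RNA. All 12 of 12 adipocyte markers reached the threshold, with a median of 384 to 571 RPKM per RNA-seq library. Single markers varied more. Ucp1 RNA was 48.1 and 544 RPKM in Y1cKO and 609 and 1441 RPKM in Y1CTL. Its footprints were 3164 and 2481 RPKM in Y1cKO and 3585 and 955 RPKM in Y1CTL. Pnpla2 RNA was steadier, at 1271 and 1354 RPKM in Y1cKO and 963 and 811 RPKM in Y1CTL. The part of such differences in the TE values was not tested. Of 24 markers of T cells, B cells and lymph nodes, 23 were in the files. Their median was 26.9 to 32.3 RPKM by Ribo-seq. By RNA-seq it was 14.1 RPKM in Y1CTL replicate 2 and did not exceed 0.203 RPKM in the rest. The lymphoid median was thus lower in RPKM in each RNA-seq library than in the Ribo-seq libraries, and by least in Y1CTL RNA-seq replicate 2. There it was 14.1 RPKM, against 26.9 RPKM in Y1CTL Ribo-seq replicate 2. Over all genes at the threshold the medians of these libraries were 8.003 and 15.6 RPKM. The lymphoid gap was thus like that of all genes in that RNA-seq library alone. With that RNA-seq library the median TE was -0.28 for the members and 0.95 for all genes against Y1CTL Ribo-seq replicate 2, and -0.26 and 0.94 against Y1CTL Ribo-seq replicate 1. The part of lymphoid RNA in the results was not tested. The median of 23 skeletal muscle markers was 8.87 RPKM in replicate 1 of Y1cKO RNA-seq and did not exceed 0.112 RPKM in the other 3 RNA-seq or 0.273 RPKM in the Ribo-seq libraries, and its part in the results was not tested. In whole tissue, fewer cells of a type and less RNA per cell cannot be told apart.

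Coding length went with TE, in the members and in other genes, and the members stayed lower at each length. The members' coding length had a median of 1761 bases, against 1386 bases for the other genes at the threshold. For coding lengths under 1000 bases the median TE was 0.19 in 18 members and 1.80 in other genes. Between 1000 and 2000 bases it was -0.14 in 130 members and 0.98 in other genes. Between 2000 and 4000 bases it was -0.47 in 64 members and 0.20 in other genes. At 4000 bases or more it was -1.80 in 13 members and -0.70 in other genes. The member median was thus lower in each of the 4 bands, by 0.66 to 1.61 on the log2 scale. The Spearman's rho of TE with coding length was -0.29 across the members and -0.55 across the other genes. The authors' RPKM is over the transcript for RNA-seq and over the coding part for Ribo-seq, so length enters the ratio by construction.

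**Figure D2:**
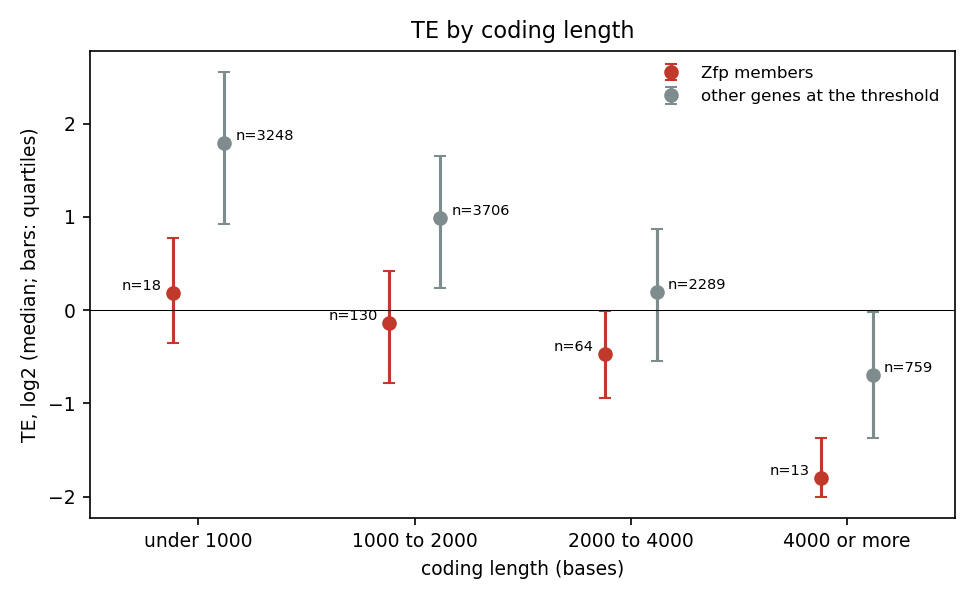
Median TE (y axis, log2, with bars for the quartiles) by band of coding length in bases (x axis) for Zfp members and for the other genes at the threshold, with the number of genes beside each point. The members sit below the other genes in all 4 bands, from 0.19 against 1.80 under 1000 bases to -1.80 against -0.70 at 4000 bases or more.

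The gap was present at each RNA level. Of the members, 90.7% had a mean RNA-seq level under 10 RPKM, against 54.9% of the other genes. At 1 to 3 RPKM the median TE was -0.26 in 85 members and 0.60 in other genes. At 3 to 10 RPKM it was -0.26 in 119 members and 0.85 in other genes. At 10 RPKM or more it was -0.87 in 21 members and 1.08 in other genes, the widest gap of the 3 bands. For the 5′ leader the members showed no steady order. Their median TE was -0.43 under 100 bases, -0.23 at 100 to 300 bases and -0.35 at 300 bases or more. The Spearman's rho of TE with leader length was 0.01 across the members and -0.13 across the other genes. The 3′UTR showed another order. With a 3′UTR under 500 bases the median TE was -0.63 in 47 members. With one of 2000 bases or more it was 0.02 in 69 members. The shorter band includes Zfp970, Zfp971 and Zfp931, each with 3 annotated bases of 3′UTR, and Zfp973 with 303 bases. Zfp970 and Zfp971 also had 0 bases of annotated 5′ leader. These genes were among the members with the lowest TE, and their part in the order was not tested. The Spearman's rho of TE with 3′UTR length was 0.24 across the members and -0.04 across the other genes, a weak relation whose points share coding length and RNA level.

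Genes with other names for the same kind of fingers were also low. The Zbtb genes, whose C2H2 fingers follow a BTB domain, had a median TE of -0.28 (n = 34), and 28 of them lay below the median of all genes. The Zkscan and Zscan genes, with a SCAN domain, had a median of -0.05 (n = 13), and the Zfp genes whose number is followed by a letter had -0.64 (n = 16), all of them below the median of all genes. The Klf and Sp genes, which bind GC-rich promoters with a short row of fingers, had a median of 0.44 (n = 15), nearer to all genes. Nuclear receptors, transcription factors with another kind of zinc finger, had -0.11 (n = 25). The corepressors that KRAB proteins recruit had a median of 0.75 (n = 19), close to that of all genes. Trim28, the scaffold of that complex, had 34.8 and 41.4 RPKM by Ribo-seq in Y1cKO, against 37.3 and 39.8 RPKM in Y1CTL. By RNA-seq Trim28 had 29.2 and 20.1 RPKM in Y1cKO and 19.2 and 22.7 RPKM in Y1CTL. Its Ribo-seq value was the higher in every pair, and its TE of 0.75 was slightly below the median of all genes (0.88). The adipocyte markers had a median TE of 1.90 (n = 12).

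**Figure D3:**
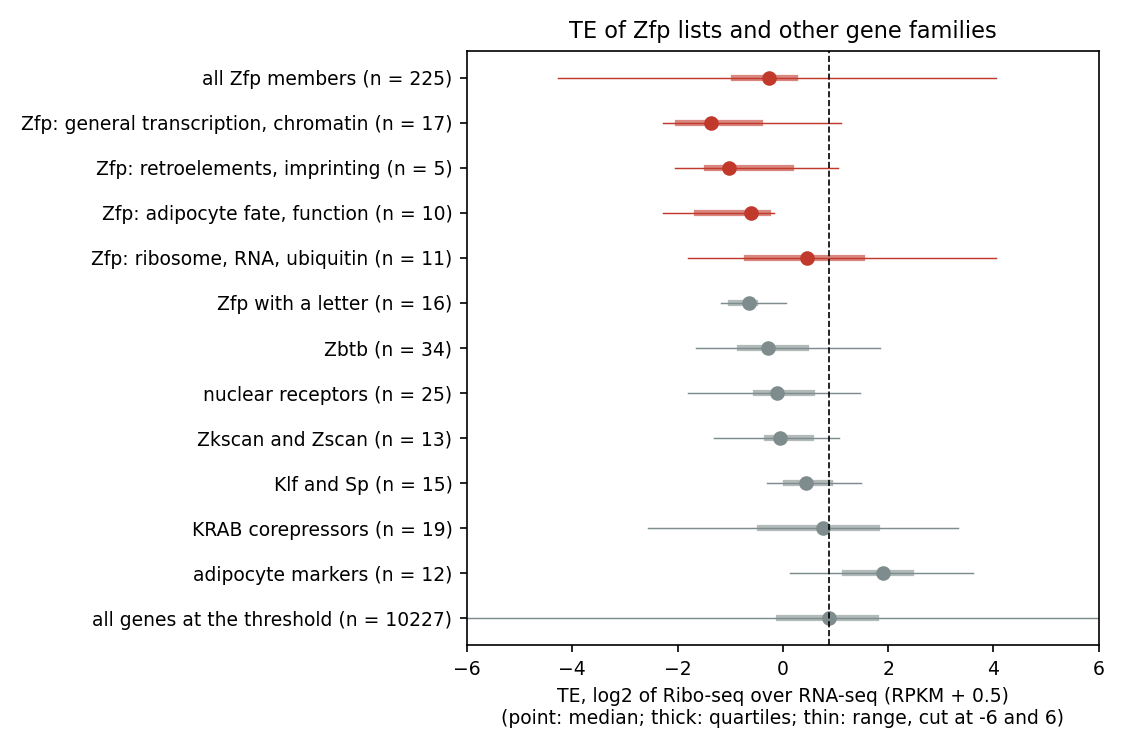
TE (x axis, log2 of Ribo-seq over RNA-seq) of all Zfp members, of 4 lists of Zfp genes by role, of other gene families and of all genes at the threshold. Points are medians, thick bars quartiles and thin bars the range, and the medians run from -1.37 for the Zfp list of general transcription and chromatin factors to 1.90 for adipocyte markers, with all genes at 0.88 (dashed).

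Zfp706 stood apart at the top. It encodes a very small protein that restrains Klf4 in mouse embryonic stem cells, and its coding part here was 228 bases. Its footprints reached 232 and 261 RPKM in Y1cKO, against 245 and 218 RPKM in Y1CTL. By RNA-seq it had 14.2 and 12.6 RPKM in Y1cKO, against 15.3 and 14.1 RPKM in Y1CTL. Its TE of 4.04 was the only one of a member in the highest 10% of all genes, and the genotypes overlapped in both assays. Zfp24, which is needed for myelination by oligodendrocytes, came next with a TE of 2.12, from 22.3 and 28.1 RPKM in Y1cKO and 26.8 and 24.0 RPKM in Y1CTL by Ribo-seq. By RNA-seq Zfp24 had 4.94 and 5.70 RPKM in Y1cKO and 5.91 and 5.06 RPKM in Y1CTL. Zfp330, a nucleolar protein, had a TE of 1.98, Zfp622 a TE of 1.96 and Zfp84 a TE of 1.76. Of the 5 members with the highest TE, 3 (Zfp706, Zfp330 and Zfp622) are on the list for ribosome, RNA and ubiquitin work. That list holds 11 of the 225 members and was chosen with earlier results known, so the count is a description only. The coding parts of the 3 genes were 228, 948 and 1428 bases, against a member median of 1761 bases.

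The list of Zfp genes for work on ribosomes, RNA or ubiquitin had 11 members with a median TE of 0.46. Of these, 7 were below the median of all genes. Zfp622, which in human cells and as Rei1 in yeast acts in the last steps of the large ribosomal subunit, had 18.9 and 21.6 RPKM by Ribo-seq in Y1cKO and 19.0 and 21.1 RPKM in Y1CTL. Its RNA was 5.82 and 4.41 RPKM in Y1cKO and 5.14 and 3.96 RPKM in Y1CTL, below the footprint value in every library. Zfp598, the ubiquitin ligase that senses collided ribosomes, was on the other side with a TE of -0.89. It had 6.52 and 6.30 RPKM by Ribo-seq in Y1cKO, against 5.45 and 3.94 RPKM in Y1CTL, and 12.02 and 11.2 RPKM by RNA-seq in Y1cKO, against 10.3 and 8.96 RPKM in Y1CTL. Zfp326, a splicing factor of the DBIRD complex, had a TE of 1.04 and Zfp346, which binds double-stranded RNA, a TE of 0.83. Zfp593, also on the list, was not a member.

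Of the 5 members with the most RNA, Zfp207, Zfp106 and Zfp91 are on the same list. Zfp207 (BuGZ), which loads Bub3 at kinetochores, was the highest, with 54.7 and 60.6 RPKM by RNA-seq in Y1cKO, against 48.7 and 54.4 RPKM in Y1CTL. Its footprints were 48.9 and 53.8 RPKM in Y1cKO and 62.3 and 54.9 RPKM in Y1CTL, so that its TE was 0.01. Zfp106, an RNA-binding protein needed for motor neurons in mice, had 38.6 and 40.2 RPKM by RNA-seq in Y1cKO and 35.0 and 40.8 RPKM in Y1CTL. Its footprints were 10.4 and 10.1 RPKM in Y1cKO and 12.7 and 9.90 RPKM in Y1CTL, with a TE of -1.80. Zfp91, a ubiquitin ligase of the non-canonical NF-kB pathway, had a TE of -0.87, and Zfp703, a corepressor of the NET family, a TE of -0.19. Zfp467, the fifth by RNA level, had a TE of -1.16, so that all 5 were below the median of all genes.

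The Zfp genes known from adipocytes were all below the median of all genes, 10 of 10 members, with a median TE of -0.60. Of all members, 92.0% lay below it. The median coding length of these 10 was 3297 bases, against 1761 bases for all members. Zfp385a, also on the list and at the threshold, was not a member because of the letter in its symbol, and had a TE of -0.56. Zfp423, the preadipocyte commitment factor, had 2.69 and 3.23 RPKM by Ribo-seq in Y1cKO, against 2.001 and 2.77 RPKM in Y1CTL. By RNA-seq it had 19.9 and 17.3 RPKM in Y1cKO, against 12.5 and 11.0 RPKM in Y1CTL. Its TE of -2.28 was 9th from the bottom among the 225 members, and the Ribo-seq values of the genotypes overlapped while its RNA-seq values did not. Zfp521, which opposes adipocyte commitment, had a TE of -1.79, from 1.15 and 1.04 RPKM in Y1cKO and 0.922 and 1.62 RPKM in Y1CTL by Ribo-seq. Zfp467, which turns marrow stromal cells towards fat, had 7.67 and 7.83 RPKM by Ribo-seq in Y1cKO and 7.76 and 7.16 RPKM in Y1CTL, on 20.2 and 18.7 RPKM of RNA in Y1cKO and 17.2 and 14.6 RPKM in Y1CTL. Zfp516, the cold-induced activator of Ucp1, had a TE of -0.71, from 2.24 and 2.81 RPKM in Y1cKO and 2.09 and 3.21 RPKM in Y1CTL by Ribo-seq. Its RNA was 4.97 and 4.00 RPKM in Y1cKO and 4.45 and 4.56 RPKM in Y1CTL, and the genotypes overlapped in both assays. Zfp407, which acts on PPARγ target genes, had a TE of -1.97. Zfp638, a C/EBP cofactor in adipocyte differentiation, had -0.49, Zfp30 had -0.37, Zfp395 had -0.25, Zfp746 (PARIS), a repressor of Ppargc1a, had -0.22, and Zfp217 had -0.17.

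The list of general transcription and chromatin factors was the lowest of the 4, with a median TE of -1.37 over 17 members, 11 of them in the lowest 10% of all genes. Its median coding length was 3786 bases, against 1761 bases for all members. Zfp335, part of a histone methyltransferase complex, had 1.36 and 1.24 RPKM by Ribo-seq in Y1cKO and 1.49 and 1.32 RPKM in Y1CTL. Its RNA was 8.61 and 6.21 RPKM in Y1cKO and 7.44 and 5.89 RPKM in Y1CTL, which gave a TE of -2.01. Zfp592, Zfp687 and Zfp532, whose human counterparts form one complex, had TE of -0.76, -1.37 and -2.28. Zfp143, Zfp148 and Zfp281 had the highest TE of the list. Zfp143, which binds promoters of small nuclear RNA and protein-coding genes, had a TE of 1.07 from 9.34 and 10.4 RPKM by Ribo-seq in Y1cKO and 9.07 and 7.88 RPKM in Y1CTL. Zfp148, which binds GC-rich promoters, had 1.11, and Zfp281, a repressor in embryonic stem cells, had 0.78.

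Of the Zfp genes with a known role against retroelements or at imprinted loci, 5 of 8 were members, with a median TE of -1.02. They were far apart. Zfp809, which silences retroviruses through their primer binding site, had a TE of 1.05, from 12.7 and 15.8 RPKM by Ribo-seq in Y1cKO and 11.1 and 13.7 RPKM in Y1CTL. Its RNA was 8.68 and 8.67 RPKM in Y1cKO, against 4.79 and 3.82 RPKM in Y1CTL. Zfp445, which keeps imprints, had a TE of 0.15. Zfp568, a repressor of an Igf2 transcript in the embryo, had -1.02, Zfp708 had -1.44, and Zfp932, which silences endogenous retroviruses, had -2.04 on 10 footprint reads in all.

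**Figure D4:**
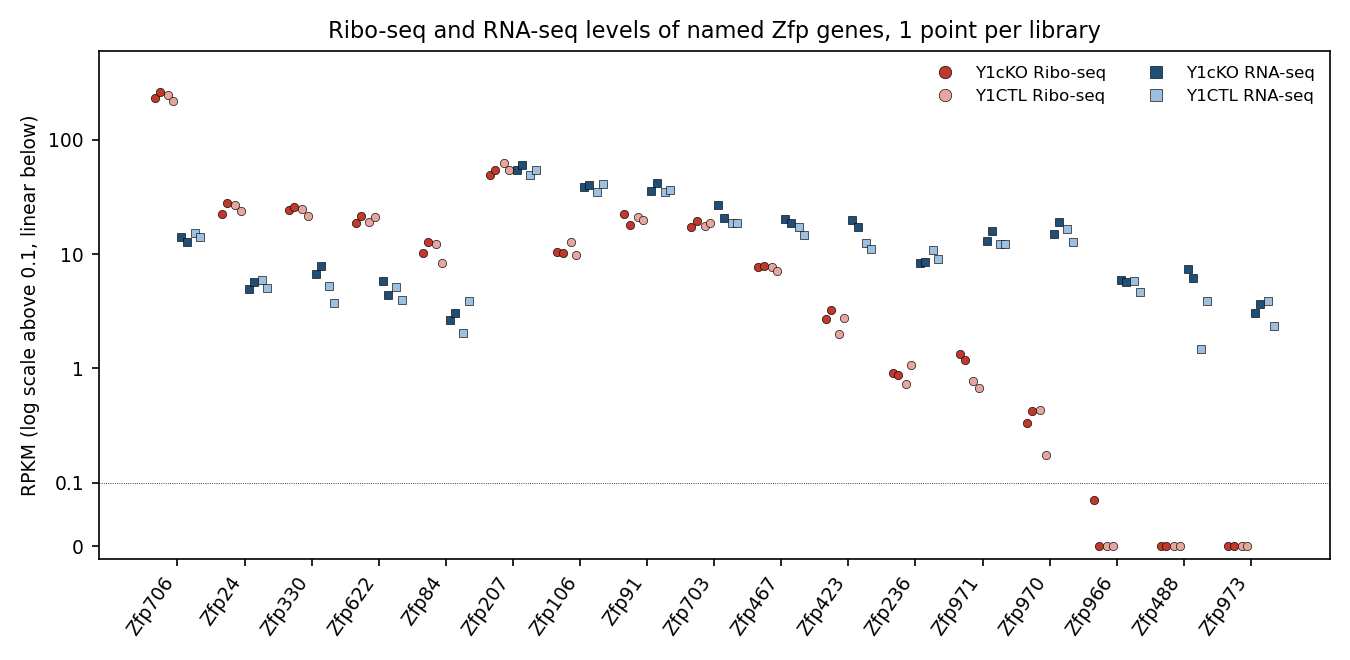
Ribo-seq (circles) and RNA-seq (squares) level in RPKM (y axis, logarithmic above 0.1 and linear below) of 17 named Zfp genes (x axis), 1 point per library, with Y1cKO left of Y1CTL in each assay. Footprints exceed RNA in Zfp706 at 218 to 261 RPKM, while Zfp488 and Zfp973 are at 0 in all 4 Ribo-seq libraries.

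At the bottom were members with RNA and almost no footprints. Zfp970 had 14.8 and 19.0 RPKM by RNA-seq in Y1cKO and 16.6 and 12.8 RPKM in Y1CTL. Its footprints were 0.336 and 0.424 RPKM in Y1cKO and 0.431 and 0.173 RPKM in Y1CTL, 21 reads in all, for a TE of -4.28. Zfp971 had a TE of -3.22 and Zfp236 of -2.80, with 53 and 184 footprint reads. Zfp966 had 1 footprint read in the 4 libraries on 5.96 and 5.68 RPKM of RNA in Y1cKO and 5.85 and 4.66 RPKM in Y1CTL. Zfp488, a partner of Olig2 in oligodendrocytes, had 0 footprints in every library. Its RNA was 7.33 and 6.16 RPKM in Y1cKO, against 1.47 and 3.89 RPKM in Y1CTL. Against a limit of 3 reads over the 4 Ribo-seq libraries, its footprint level was at least 60.0-fold lower than its mean RNA level. Zfp973 also had 0 footprints, and was at least 38.9-fold lower by the same limit. The limit covers counting error only, and the TE of such genes depends on the added 0.5 RPKM.

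Of the 5 members with the lowest TE, 4 lie in one run of neighbouring genes. The run from Zfp966 to Zfp931, taken after the values were seen, holds 20 coding genes in the RefSeq order of GRCm38.p6, of which 7 have a Zfp symbol and 12 a Gm symbol. Its 5 members, Zfp966, Zfp970, Zfp971, Zfp973 and Zfp931, were all in the lowest 10% of all genes, with a median TE of -3.22. A second run, from Zfp978 to Zfp933, holds 9 genes, and its 4 members had a median of -1.77 (Zfp982 -2.19, Zfp979 -1.87, Zfp984 -1.66 and Zfp933 -0.38). The values in such runs are uncertain, because near-identical copies can share reads, which was not tested. Such copies were not identified among any of the members, so those outside the runs may carry the same limit. The 216 members outside both runs had a median TE of -0.25, and the difference from all genes was -1.12 without the runs. Counted by symbol, the 105 members with a Zfp gene as a direct neighbour had a median TE of -0.17, against -0.46 for the other 120. Neighbours with a Gm symbol did not count, so Zfp966 and Zfp970, between Gm genes, were among the 120. The contrast thus rests on gene names and does not measure whether genes lie in runs.

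Promoters were read from RefSeq (GRCm38.p6), from 250 bases before to 50 bases after each start, for 185 of 225 members and 8167 of the genes at the threshold. The members' promoters had fewer CpG dinucleotides, with a median of 16 against 21, and a median GC content of 55.7% against 61.3%. Of 8 sets of letters searched on both strands, the CCAAT box (CCAAT) was in 53.0% of the members' promoters and in 42.7% of all. The GC box (GGGCGG) was in 52.4% and in 70.9%. The TATA box (TATAAA) was in 8.11% and 8.84%, the Ets letters (CCGGAAG) in 24.3% and 21.6%, the Nrf1 letters (GCGCATGC) in 7.03% and 6.43%, the E-box (CACGTG) in 7.57% and 12.2%, and the cAMP response element (TGACGTCA) in 3.78% and 3.60%. The letters CTACAATTC, part of the site that Zfp143 reads, were in 5 members (2.70%) and in 0.857% of all promoters. Those 5 are shown because Zfp143 is itself a member. Each line gives 30 bases, with the letters in capitals, which read GAATTGTAG where the site is on the other strand.
Zfp1, chr8:111643409-111643438 (+): ggcattatggGAATTGTAGtcctacacctc
Zfp180, chr7:24081866-24081895 (+): agagttctggGAATTGTAGttccattgagc
Zfp58, chr13:67500532-67500561 (-): agacttgtggGAATTGTAGtctggccactg
Zfp692, chr11:58307012-58307041 (+): ctaaggctaaCTACAATTCccggcaggctt
Zfp933, chr4:147848430-147848459 (-): ttccaaagaaCTACAATTCccagcattcca
The letters start upstream of the annotated start in all 5. The TE of these 5 was 1.06 in Zfp1, 0.42 in Zfp58, -0.38 in Zfp933, -1.37 in Zfp180 and -1.78 in Zfp692, from below the lower to above the upper quartile of the members. A match is a description of letters and says nothing of binding.

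Y1cKO and Y1CTL tissue were then compared, gene by gene, with limma over all genes. Both Y1cKO RNA-seq libraries were deeper (12211351 and 16429015 reads) than both Y1CTL ones (3958284 and 4963613 reads). In the RNA-seq and TE changes, depth and genotype thus cannot be told apart. In RNA-seq, 0 of 225 members passed an adjusted p of 0.05 (background 0% of 12435 genes). At an unadjusted p under 0.05 there were 17 members, 15 higher in Y1cKO, which is 7.56% against a background of 11.8%. Both Y1cKO libraries lay above both Y1CTL libraries in 71 members (31.6%, background 36.9%) and below in 22 (9.78%, background 10.7%). The median log2 change of the members was 0.11, against 0.17 over all genes. With the libraries scaled to the same median these became -0.049 and 0.013, so the sign of the member median goes with the scaling. An exact test of 2 libraries against 2 cannot go below p = 0.333.

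In Ribo-seq, 0 of 209 members with enough signal passed (background 0% of 12602 genes), and 2 had an unadjusted p under 0.05 (0.957%, background 2.75%), Zfp688 and Zfp963. Both Y1cKO libraries were above both Y1CTL libraries in 24 members (11.5%, background 15.4%) and below in 31 (14.8%, background 14.1%). The median log2 change was -0.00099 for the members and 0.0071 for all genes. The quartiles of the members' log2 changes were -0.12 and 0.15. For TE, 0 of 209 passed (background 0% of 11792 genes) and 7 had an unadjusted p under 0.05, all lower in Y1cKO (3.35%, background 8.66%). With RNA-seq and Ribo-seq libraries set against each other by number, the TE of both Y1cKO pairs was above that of both Y1CTL pairs in 33 members (15.8%, background 9.53%) and below in 53 (25.4%, background 29.8%). The median change was -0.12 for the members and -0.17 for all genes. With scaling it was 0.015 for the members and -0.023 for all genes. By voom on recovered reads, 0 members passed in each of the 3 comparisons (background 0 of 12435, 12602 and 11792 genes). At an unadjusted p under 0.05 by voom there were 16 members in RNA-seq (7.11%, background 10.7%). The same rule gave 1 in Ribo-seq (0.478%, background 2.33%) and 5 in TE (2.39%, background 8.59%).

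**Figure D5:**
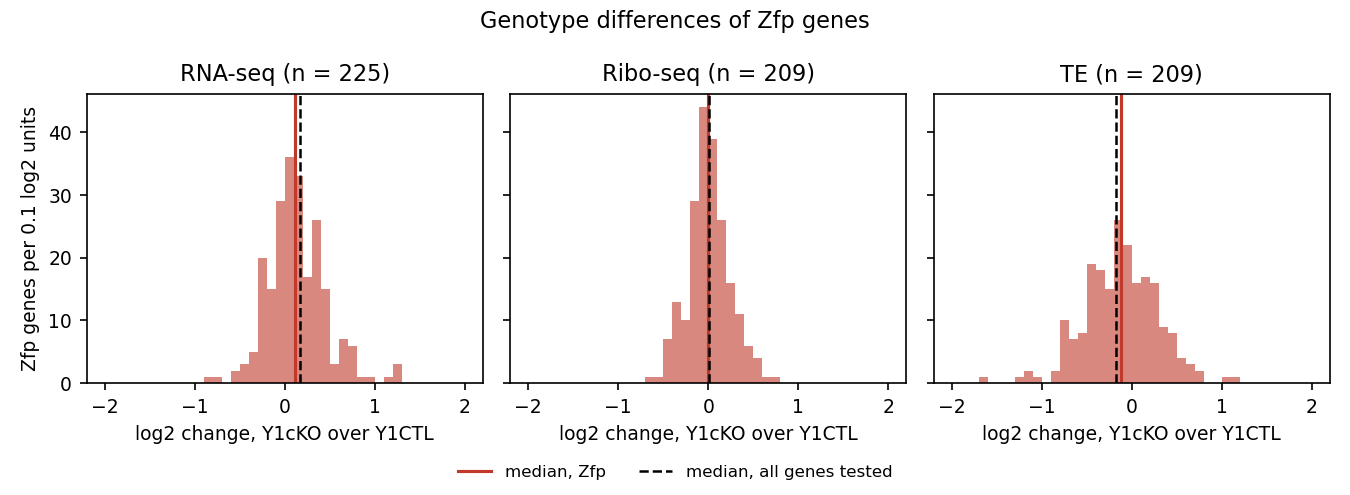
Log2 change, Y1cKO over Y1CTL (x axis), of Zfp members as a count of genes per bin (y axis) in RNA-seq, Ribo-seq and TE. The solid line is the member median (0.11 in RNA-seq, -0.00099 in Ribo-seq and -0.12 in TE) and the dashed line the median of all genes tested (0.17, 0.0071 and -0.17).

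Zfp488, Zfp949 and Zfp503 had the largest RNA-seq differences. Zfp949 had 6.42 and 6.54 RPKM by RNA-seq in Y1cKO, against 2.62 and 2.32 RPKM in Y1CTL, a log2 change of 1.23 with a standard error of 0.22 (adjusted p = 0.402 from limma). Its footprints were 1.80 and 2.51 RPKM in Y1cKO and 1.86 and 2.48 RPKM in Y1CTL, which overlap, and its TE change was -1.25 (adjusted p = 0.563 from limma). Zfp503, a corepressor of the same NET family as Zfp703, had 13.3 and 10.2 RPKM by RNA-seq in Y1cKO, against 7.49 and 2.92 RPKM in Y1CTL. Its footprints were 9.84 and 8.66 RPKM in Y1cKO, against 10.2 and 14.9 RPKM in Y1CTL. The TE change of Zfp503 was -1.62 with a standard error of 0.55 (adjusted p = 0.563 from limma), the largest fall of the members. The Zfp488 RNA-seq change was 1.30 (adjusted p = 0.402 from limma). Without Y1CTL replicate 1, limma called the RNA of Zfp503 (1.83, adjusted p = 0.0218), Zfp949 (1.31, adjusted p = 0.0382), Zfp651 (1.36, adjusted p = 0.0470) and Zfp809 (1.09, adjusted p = 0.0490), which is 1.78% of the members against a background of 5.33% of all genes in that fit. Without Y1CTL replicate 1 it also called the TE of Zfp503 (-2.49, adjusted p = 0.00817), Zfp688 (1.57, adjusted p = 0.0399) and Zfp930 (1.71, adjusted p = 0.0433), 1.43% of the members tested against a background of 8.14%. Those fits leave 1 Y1CTL library, in RNA-seq the one with lymphoid RNA, which is assumed to vary like the Y1cKO libraries. Without Y1CTL replicate 2, limma called the RNA of Zfp488 (1.88, adjusted p = 0.0354), 0.444% of the members against a background of 0.426%. On the other side, Zfp827, which recruits NuRD to telomeres in human cells, had 2.29 and 2.32 RPKM by RNA-seq in Y1cKO, against 4.98 and 4.33 RPKM in Y1CTL (log2 change -0.88, adjusted p = 0.402 from limma). Zfp984 and Zfp930 were also lower by RNA-seq (-0.72 and -0.55), which enters their TE. They had the largest rises in TE (1.09 and 1.11), with Zfp11 at 0.77, none of which passed the test. In Y1CTL Ribo-seq replicate 2 Zfp984 and Zfp930 had 3 and 15 footprint reads, against 23 and 56 in replicate 1. Without Y1CTL replicate 2 their rises were 0.49 and 0.51, while that of Zfp11 was 1.19.

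By Ribo-seq the widest non-overlapping differences were small in absolute terms. Zfp511 had 4.35 and 6.05 RPKM in Y1cKO, against 4.16 and 1.99 RPKM in Y1CTL (log2 change 0.73, standard error 0.34, adjusted p = 1.00 from limma). Zfp688 had 2.81 and 2.69 RPKM in Y1cKO, against 1.95 and 1.16 RPKM in Y1CTL, and Zfp963 had 2.11 and 2.02 RPKM in Y1cKO, against 1.17 and 1.30 RPKM in Y1CTL. The largest differences the other way were in Zfp2 (-0.62), Zfp641 (-0.51) and Zfp30 (-0.50). Zfp771 was among the largest falls in TE (-1.17, adjusted p = 0.563 from limma), with 8.72 and 6.03 RPKM by RNA-seq in Y1cKO, against 3.58 and 2.58 RPKM in Y1CTL, and overlapping footprints.

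Zfp423 RNA was higher in Y1cKO by 0.64 on the log2 scale with a standard error of 0.19, in both libraries over both Y1CTL libraries, and did not pass the test (adjusted p = 0.402 from limma). Of the 10 adipocyte-related members, 0 passed in any of the 3 comparisons. The background was 0% of all genes tested in each.

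The threshold of 1 RPKM cut through a continuous range. Just inside were Zfp689, with a lowest RNA-seq value of 1.00 RPKM and a TE of -0.59, Zfp41 (1.02 RPKM, TE 1.04) and Zfp760 (1.05 RPKM, TE -0.37). Just outside were Zfp59 (0.953 RPKM, TE -0.01), Zfp563 (0.939 RPKM, TE 1.19) and Zfp697 (0.929 RPKM, TE -1.24).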

How the data were processed

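RNA-seq and Ribo-seq were made from divided iWAT, with 2 libraries per genotype and assay. After adaptor trimming and masking, the authors aligned reads to mm8 (HISAT2 2.2.1) and deposited RPKM, over the transcript for RNA-seq and over the coding part for Ribo-seq. DESeq2 is also listed in the submitters' processing notes. The counter and annotation release were not given in the sources used here. Every value (100%) equalled a whole number of reads to within 0.01 read, so reads were computed back. Genes missing from a Ribo-seq table were set to 0.

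Genotypes were compared on log2(RPKM + 0.5) by limma-trend (limma 3.58.1, R 4.3.3) in genes averaging 0.5 RPKM or more, with Benjamini-Hochberg adjustment over all of them. TE was the interaction of assay and genotype. The fits were tested on simulated data. Fold changes on this scale understate changes of low genes. Members, lists and the rule for named genes (extremes of TE, RNA level and non-overlapping change, list members, and genes at the threshold) were chosen with earlier results of these data known. Symbols turned into dates (24) were restored by identifier. Labels do not say that libraries of 1 group are separate animals, so p-values measure the spread between libraries. In the Y1cKO RNA-seq tables the replicate number of the column differs from that of the sample label, and the label was used. Alternatives covered pseudocount, filter, scaling, threshold, background, replicate block, voom and each replicate left out.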

Additional observations from a re-analysis of the deposited data

How the results depend on the processing

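The TE difference between Zfp members and all genes (-1.15) stayed below 0 under all 13 alternatives run. It was -1.23 with a pseudocount of 0.1, -1.07 with 1, -0.93 against genes of the members' middle coding lengths (1120 to 3150 bases) and -0.90 without members under 100 footprints, the last chosen after seeing the data. It moved by less than the spread between pairs under the others, at -1.18 to -1.11 with a replicate left out. An alternative without near-identical copies was not run, since no table used here identifies them.

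With the libraries scaled to the same median, the members' median change was -0.049 in RNA-seq and 0.015 in TE. With a replicate left out it ran from 0.072 to 0.14 in RNA-seq, from -0.056 to 0.066 in Ribo-seq and from -0.17 to -0.019 in TE, and the members called ran from 0 to 4 in RNA-seq and from 0 to 3 in TE, both highest without Y1CTL replicate 1, where 665 of 12481 and 963 of 11828 genes were called. The change of Zfp688 in TE turned to -0.48 without Y1CTL replicate 2 and was 1.57 without Y1CTL replicate 1, against 0.54 with all libraries.

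The deviations from the group means of libraries with the same number in both assays had a correlation of -0.24 in Y1cKO and -0.14 in Y1CTL across 11792 genes, and the main fits had no block. The sign of the Y1cKO correlation and the TE of single pairs follow the numbers of the labels. With the column numbers of Y1cKO RNA-seq that sign would be reversed. With the replicate block 0 members were called in RNA-seq, Ribo-seq or TE (background 0 of 12435, 12602 and 11792 genes). With the numbers crossed 0 members were called in TE (background 0 of 11792 genes).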

Other observations

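The 128 Zfp symbols that were not members had a median mean level of 0.754 RPKM by RNA-seq and 0.550 RPKM by Ribo-seq, and 6 of them had no RNA-seq value. Of these symbols, 34 reached 1 RPKM in 3 of the 4 RNA-seq libraries. In 13 of the 34 only Y1CTL replicate 1 was below, in 15 only Y1CTL replicate 2, and in 6 only 1 of the Y1cKO libraries, which are the deeper ones. Some non-members carried clear footprints. Zfp449 had 5.55 and 5.84 RPKM by Ribo-seq in Y1cKO, against 4.18 and 5.07 RPKM in Y1CTL, on 1.49 and 1.86 RPKM of RNA in Y1cKO and 1.69 and 0.539 RPKM in Y1CTL. Zfp593, which in human cells acts in ribosome assembly, had 4.97 and 2.202 RPKM by Ribo-seq in Y1cKO, against 2.31 and 2.70 RPKM in Y1CTL, while its RNA was at most 0.611 RPKM in any library.

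In the run from Zfp966 to Zfp931, the genes with a Gm symbol at the threshold were low as well. Gm14410 had a TE of -2.37, Gm14295 of -2.26 and Gm14326 of -2.03, while Gm14325 had -0.45.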
